A study of Ovis aries with 95 samples.

Results

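NEUROD1 and NKX6.1 are transcription factors of the developing nervous system, and their RNA was followed here over 4 brain regions and 6 ages of the sheep. Their probes were found by the gene given in the annotation of the array: 2 probes carried NEUROD1 and 1 probe carried NKX6.1 (NKX6-1), of 15008 gene probes on the array. The 2 genes were selected on the normalized levels of these same arrays, whose course with age was already known, so their levels and their differences between ages and regions are a description, with errors and without any test.

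Untreated fetuses were taken at 80, 100, 120, 130 and 145 d of gestation and lambs at 1 d after birth, and RNA was extracted from the whole dissected cortex (a section of the frontal cortex), brainstem, hippocampus and hypothalamus. Each group of 1 region and 1 age held 4 arrays, except the hippocampus at 100 d with 3, which gives 95 arrays in 24 groups. By the methods of the study the groups called 100 d and 145 d each span a few days of gestation, no ewe showed signs of labour, and every age held a set of twins that the labels do not mark. Litter was therefore not modelled, and animals that share a ewe are not fully independent. All 4 regions were dissected from the brain of each fetus, but the labels do not say which arrays share one, so standard errors of differences between regions treat the arrays as independent. In RNA of whole tissue, fewer cells of a type and less RNA per cell cannot be told apart.

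NEUROD1 is a basic helix-loop-helix factor that is switched on as neural precursors leave the cell cycle and become neurons. It is needed for granule neurons of the dentate gyrus and of the cerebellum and for endocrine cells of the pancreas. NKX6.1 is a homeodomain factor of the ventral neural tube, where it responds to Sonic hedgehog and represses dorsal homeodomain genes, and where motor neuron and oligodendrocyte precursors arise. Both factors also belong to the gene network of the islet beta cell, together with PAX6, NKX2-2, ISL1 and NEUROG3, whose probes are described further on.

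The NEUROD1 probe sequences are shown because they set what each probe can bind. Both probes are 60 bases long and lie end to end in the source record, at bases 2061 to 2120 and 2121 to 2180 with a gap of 0 bases. They share no base with each other, and the first 30 bases of each are printed.
NEUROD1 probe 1: aatacgtgctgtttgagatgtgatactggt
NEUROD1 probe 2: gtttgtaatcctgtatattatggtgtaatg

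The NKX6.1 probe lies inside the homeobox, the part of the gene that encodes the DNA-binding homeodomain and that related factors share. The closest relative of NKX6.1, NKX6.2, had no named probe among those analysed here, and whether its transcript binds the NKX6.1 probe was not tested.

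Levels are normalized log2 intensities, on which a difference of 1 is a doubling of signal, and they compare arrays for 1 gene but not 1 gene with the other. The share of gene probes well above background was 72 to 88.5% on the brainstem arrays, 73.9 to 83.9% in cortex, 75.3 to 86.8% in hypothalamus and 59.5 to 85.1% in hippocampus. The lowest signal of such a probe had a median near 6.5 on each region's arrays. Each slide carried arrays of 1 region, so region and slide cannot be told apart. Between 0.349 and 39.8% of genes on an array lay more than 1 from the mean of the other arrays of its group, and the 5 arrays over 20% were all among the 8 arrays of hippocampus slide 4. Several hippocampus results are therefore also given without that slide. In brainstem this share of genes was 4.13 to 16.2% on the newborn arrays and 0.368 to 1.33% on those of the other ages. OXT, AGRP and GHRH, hypothalamic neuropeptides, reached group means of up to 11.82, 9.3 and 8.57 in the hypothalamus, and of at most 8.94, 6.69 and 6.85 elsewhere, whereas NPY and SST, peptides of many neurons, were higher in cortex (up to 12.93 and 15.1) than in hypothalamus (up to 11.79 and 13.58). Of 4 brainstem genes SLC6A4, CALCA and GATA3 reached their highest group mean in brainstem (7.2, 7.85 and 10.24) and SLC6A2 did not (6.92, against 7.01 in hypothalamus). Of 19 genes listed as markers of cortex and hippocampus, 0 had a named probe, so those labels were not checked against markers.

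NEUROD1 was lower near term than at 80 d in all 4 regions, by 27.8-fold in brainstem, 4.71-fold in hippocampus, 2.78-fold in hypothalamus and 1.84-fold in cortex. Every array was well above background. The arrays at 145 d all lay below those at 80 d in each region. The same was true of 25.4% of all genes tested in brainstem, 8.81% in hippocampus, 9.72% in hypothalamus and 19% in cortex. For steps between neighbouring ages, of either factor, no such share of all genes was counted, so their overlap only describes the arrays. The NEUROD1 signal was thus clear in all 4 regions at every age, and the brainstem went from the level of the hippocampus to that of the hypothalamus.

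In the brainstem at 80 d the 4 arrays read 12.62, 11.07, 13.59 and 13.61 (mean 12.72 ± 1.2, SD, n = 4). At 100 d they read 10.28, 9.93, 8.39 and 9.15 (9.44 ± 0.84, SD, n = 4). These ages did not overlap, although replicate 2 at 80 d was clearly below its group. At 120 d the values were 8.84, 9.98, 8.75 and 8.27 (8.96 ± 0.72, SD, n = 4), at 130 d 8.64, 8.41, 8.58 and 8.22 (8.47 ± 0.19, SD, n = 4). At 145 d they were 8.64, 8.21, 7.54 and 7.3 (7.92 ± 0.61, SD, n = 4), and at 1 d after birth 8.16, 7.88, 8.57 and 8.54 (8.29 ± 0.33, SD, n = 4). From 100 d on, each age overlapped the next. From 80 to 145 d the difference was -4.8 (SE 0.48), the lowest of 12769 genes in the region, and 68.3% of it lay between 80 and 100 d (-3.28, SE 0.48, 9.75-fold). Without replicate 2 at 80 d that step was -3.84 and the difference at 145 d -5.35. PAX6, a factor of neural progenitors and cerebellar granule cells, was 9.65 on that array and 10.19 to 10.44 on the other arrays of 80 d, and the choroid plexus genes TTR and IGFBP2 were 16.92 against 18.32 and 15.09 against 15.23 to 16.12. Of 4 choroid plexus genes 3 lay below the range of the others and 1 inside, the granule cell gene GRM4 lay inside at 10.03, and 38 of 70 listed genes lay outside. Of 6 mature neuron genes 5 lay above and 1 below, and of 9 cell cycle genes 1 lay above, 2 inside and 6 below. What part cells dissected with the brainstem had in this difference was not tested.

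In the hippocampus the 80 d arrays had the smallest spread of all 24 groups of NEUROD1, at 12.94, 13.01, 13.02 and 13.15 (13.03 ± 0.09, SD, n = 4). The 3 arrays at 100 d read 12.03, 12.24 and 11.69 (11.98 ± 0.28, SD, n = 3), all below 80 d. At 120 d they read 11.21, 11.96, 11.49 and 11 (11.41 ± 0.42, SD, n = 4), and at 130 d 11.45, 10.08, 10.74 and 10.79 (10.77 ± 0.56, SD, n = 4). At 145 d the values 10.96, 10.7, 10.74 and 10.78 (10.79 ± 0.12, SD, n = 4) overlapped both 130 d and the newborns at 11.1, 10.54, 10.8 and 10.94 (10.85 ± 0.24, SD, n = 4). The difference lay between 80 and 130 d: the steps were -1.05 (SE 0.25), -0.57 (SE 0.25) and -0.65 (SE 0.24), and the later ones 0.03 and 0.05 (SE 0.24 each). Without slide 4 these 5 steps were -0.9, -0.55, -0.82, 0.03 and 0.02. Term minus 80 d was -2.24 (SE 0.24), 29th lowest of 12684 genes, and -2.23 without slide 4. The dentate gyrus, which goes on making granule neurons late, is part of the hippocampus and was not measured on its own.

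In the hypothalamus NEUROD1 started lower, at 9.19, 9.3, 8.9 and 10.07 at 80 d (9.37 ± 0.5, SD, n = 4). The arrays at 100 d, at 9.41, 8.4, 11.73 and 8.43 (9.49 ± 1.57, SD, n = 4), were the most scattered of all groups, with replicate 3 far above the rest. From 120 d the level was flat: 7.76, 7.95, 8.37 and 8.21 at 120 d (8.07 ± 0.27, SD, n = 4), 7.94, 8.03, 7.81 and 7.23 at 130 d (7.75 ± 0.36, SD, n = 4). Term fetuses read 8.07, 7.99, 7.8 and 7.7 (7.89 ± 0.17, SD, n = 4), and newborns 7.83, 8.21, 8.17 and 7.58 (7.95 ± 0.3, SD, n = 4). Against 80 d, the mean at 145 d differed by -1.48 (SE 0.48), 96th lowest of 12926 genes. Between 80 and 100 d the mean moved by 0.13 (SE 0.48) and between 100 and 120 d by -1.42 (SE 0.48). Without replicate 3 at 100 d these steps were -0.62 and -0.67, so the place of the decline rests on that array. On it the choroid plexus gene TTR read 17.28 (7.19 to 15.41 on the others of its age), IGFBP2 15.32 (9.22 to 14.85) and PAX6 9.58 (8.74 to 9.37). Of 4 choroid plexus genes 2 lay above the range of the other arrays and 2 inside, and of 12 pituitary genes 3 lay above, 6 inside and 3 below. The glycoprotein hormone subunit CGA was among those above, at 10.44 (7.59 to 8.5), and PRL among those below, at 6.7 (6.91 to 7.44). The cerebellar granule cell gene GRM4 read 10.78 (10.57 to 10.72). TTR and CGA were named after their values were seen, and the part of neighbouring tissue in this value was not tested.

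In the cortex the course was shallow. At 80 d the arrays read 12.12, 11.73, 11.63 and 11.5 (11.74 ± 0.27, SD, n = 4), at 100 d 12.21, 11.23, 10.93 and 11.37 (11.43 ± 0.55, SD, n = 4). At 120 d they read 10.97, 11.67, 11.16 and 11.04 (11.21 ± 0.32, SD, n = 4), at 130 d 10.82, 10.56, 11.45 and 11.05 (10.97 ± 0.38, SD, n = 4). Each of these ages overlapped the next. Term fetuses read 10.83, 10.93, 10.67 and 11.02 (10.86 ± 0.15, SD, n = 4) and newborns 10.54, 10.52, 10.73 and 10.53 (10.58 ± 0.1, SD, n = 4). No single step exceeded 0.31 in size, and the steps from 100 to 120 d and from 130 to 145 d, -0.23 and -0.11, turned to 0.03 and 0.05 without replicate 1 at 100 d and without replicate 3 at 130 d. The difference between 145 and 80 d was -0.88 (SE 0.22), 701st lowest of 12897 genes, and between newborns and 80 d -1.16 (SE 0.22, 2.24-fold).

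The 2 NEUROD1 probes told the same story at different brightness. Probe 1 was the brighter on 95 of 95 arrays, by a median of 0.57 (0.14 to 1.65), and the probes correlated with r = 0.993 across the arrays, which share tissue, age and the slides. The largest gap, 1.65, was on hippocampus 130 d replicate 2, followed by 1.16 on another array. No spot of either gene was saturated.

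NKX6.1 took the opposite course. Near term it was higher than at 80 d in all 4 regions: 9.61-fold in brainstem, at least 12.8-fold in hippocampus, 5.02-fold in hypothalamus and at least 2.59-fold in cortex. The bounds stand where no array at 80 d was well above background, and they set the bright mean against the lowest measurable signal. They hold for this processing only: the series table and normalization within a region gave fitted log2 differences down to 3.32 in hippocampus and 1.17 in cortex, below the limits of 3.68 and 1.37. The folds of brainstem and hypothalamus also depend on the processing. With the scanner software's processed signal their log2 differences were larger, at 4.01 and 3.94. The arrays at 145 d all lay above those at 80 d in each region, as did 23.3% of all genes tested in brainstem, 6.83% in hippocampus, 7.4% in hypothalamus and 16.2% in cortex.

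**Figure D1:**
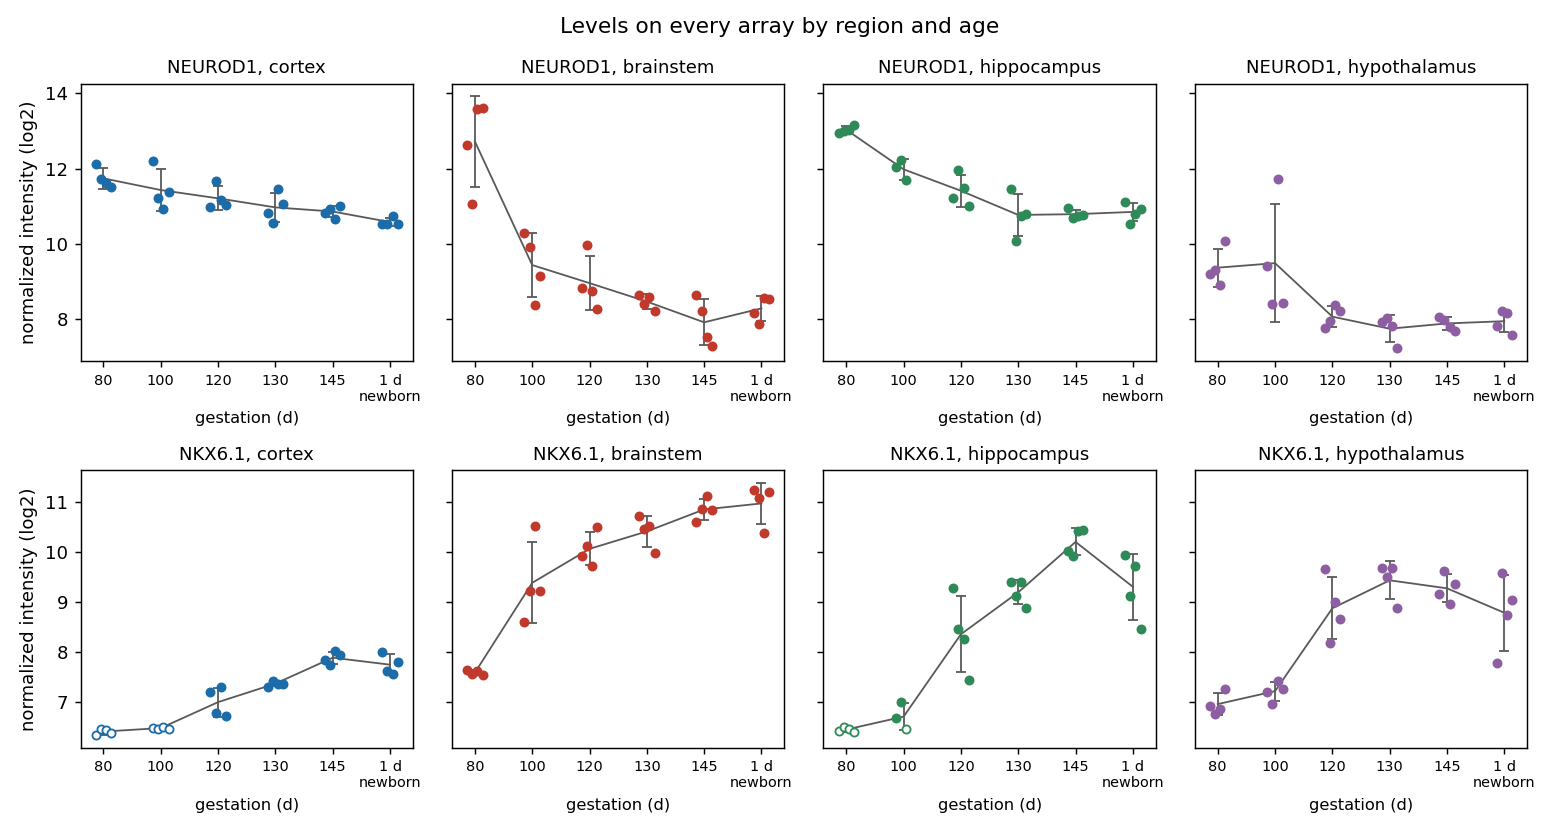
Normalized log2 intensity of NEUROD1 (upper row) and NKX6.1 (lower row) on each of the 95 arrays, by region and by age in days of gestation or at 1 d after birth. Points are single arrays, open points are arrays not well above background, and lines join the means with SD bars. Brainstem NEUROD1 goes from a mean of 12.72 at 80 d to 9.44 at 100 d while brainstem NKX6.1 goes from 7.58 to 9.38.

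In the brainstem NKX6.1 was measurable from the start. The 80 d arrays read 7.64, 7.55, 7.61 and 7.53 (7.58 ± 0.05, SD, n = 4) and the 100 d arrays 8.59, 9.21, 10.52 and 9.22 (9.38 ± 0.81, SD, n = 4). These ages did not overlap, and replicate 3 at 100 d already stood at the level of later ages. At 120 d the values were 9.91, 10.12, 9.72 and 10.49 (10.06 ± 0.33, SD, n = 4), at 130 d 10.72, 10.45, 10.51 and 9.98 (10.41 ± 0.31, SD, n = 4). Term fetuses read 10.59, 10.85, 11.11 and 10.84 (10.85 ± 0.21, SD, n = 4) and newborns 11.24, 11.08, 10.37 and 11.2 (10.97 ± 0.41, SD, n = 4). From 100 d on, neighbouring ages overlapped. The difference between 145 and 80 d was 3.26 (SE 0.28), 11th highest of 12769 genes, with 55.2% of it between 80 and 100 d (1.8, SE 0.28). Without replicate 3 at 100 d that step was 1.42 and the next one 1.06 in place of 0.68. The same array held the lowest NEUROD1 of its age, 8.39, and an NKX2-2 of 9.11 against 8.35 to 8.49 on the other 3. It differed widely, with 39 of 70 listed genes outside the range of its mates and all 4 choroid plexus genes above it.

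In the hippocampus NKX6.1 was not well above background at 80 d, where the arrays read 6.42, 6.5, 6.45 and 6.4. At 100 d they read 6.67, 6.99 and 6.45 (6.7 ± 0.27, SD, n = 3), and 2 of the 3 were well above background. The 120 d arrays, 9.27, 8.46, 8.26 and 7.43 (8.35 ± 0.76, SD, n = 4), all lay above these. The 130 d arrays read 9.39, 9.12, 9.39 and 8.88 (9.19 ± 0.24, SD, n = 4), and at 145 d NKX6.1 peaked at 10.01, 9.91, 10.42 and 10.44 (10.2 ± 0.27, SD, n = 4), above all arrays of 130 d. Newborns read 9.93, 9.11, 9.71 and 8.45 (9.3 ± 0.66, SD, n = 4), overlapping 145 d by 1 array, with a difference of -0.9 (SE 0.32). That difference was -0.59 without slide 4, -1.36 within slide 4 and -0.03 within slide 1, so its size rests on slide 4. The mean at 145 d was at least 3.68 above 80 d, with a fitted difference of 3.75 (SE 0.32), or 3.67 without slide 4, that takes the 80 d values as read. The largest step between neighbouring ages was from 100 to 120 d (1.65, SE 0.34), and without slide 4 it was 2.04 and the next one 0.39. Replicate 4 at 120 d, the lowest of its age at 7.43, stood apart as a whole, with 39.8% of genes more than 1 from its mates, the highest share of the 95 arrays, and with 53 of 70 listed genes outside the range of the other arrays of its age. It was low in the iron carrier TF at 11.47, against 14.88 to 16 on the others measured, and high in PAX6 at 11.21, against 8.5 to 9.07. On it 3 of 6 glial genes lay above the others and 3 below, and of 6 mature neuron genes 2 lay above, 2 inside and 2 below. Of 9 cell cycle genes on this array 2 lay inside and 7 below, and all 4 neurogenic and proneural factors besides NEUROD1 lay above. Of these factors NEUROG3 read 6.73 (6.51 to 6.69 on the others) and JAG1 6.88 (6.36 to 6.65), close to the lowest measurable signal. Without this array the step to 120 d was 1.96 and the next one 0.53 in place of 0.84.

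In the hypothalamus the 80 d arrays read 6.91, 6.75, 6.86 and 7.26 (6.95 ± 0.22, SD, n = 4) and the 100 d arrays 7.2, 6.96, 7.41 and 7.26 (7.21 ± 0.19, SD, n = 4). These 2 ages overlapped. At 120 d NKX6.1 read 9.65, 8.18, 8.99 and 8.65 (8.87 ± 0.62, SD, n = 4), clear of both, and at 130 d 9.68, 9.5, 9.68 and 8.87 (9.43 ± 0.38, SD, n = 4). Term fetuses read 9.16, 9.62, 8.96 and 9.35 (9.27 ± 0.28, SD, n = 4) and newborns 7.77, 9.58, 8.73 and 9.04 (8.78 ± 0.76, SD, n = 4). The step from 100 to 120 d, 1.66 (SE 0.31), made up 71.2% of the difference between 145 and 80 d (2.33, SE 0.31, 48th highest of 12926 genes). The newborn mean was 0.49 below that of 145 d and 0.15 below it without newborn replicate 1, which read 7.77 and on which the astrocyte water channel AQP4, named after its values were seen, was 8.95 against 14.25 to 14.28 on the other arrays that measured it. That array stood apart widely: 47 of 69 listed genes lay outside the range of its mates, and of 5 glial genes measured on it 3 lay above, 1 inside and 1, AQP4, below.

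In the cortex no array at 80 d (6.33, 6.45, 6.44 and 6.37) or at 100 d (6.47, 6.46, 6.5 and 6.45) was well above background for NKX6.1. The gene first reached that mark at 120 d with 7.19, 6.77, 7.3 and 6.71 (6.99 ± 0.29, SD, n = 4). The 130 d arrays were close together at 7.3, 7.41, 7.35 and 7.36 (7.36 ± 0.04, SD, n = 4), and at 145 d the arrays read 7.83, 7.73, 8.01 and 7.93 (7.88 ± 0.12, SD, n = 4). The ages from 120 to 145 d did not overlap, although the highest array at 120 d and the lowest at 130 d both round to 7.3. Newborns read 8, 7.61, 7.55 and 7.8 (7.74 ± 0.21, SD, n = 4), overlapping 145 d. The mean at 145 d was at least 1.37 above 80 d, with a fitted difference of 1.48 (SE 0.11) that takes the 80 d values as read. The size of the NKX6.1 differences depends on how dim spots are treated: with the scanner software's processed signal they were 5.71 in cortex, 8.63 in hippocampus, 3.94 in hypothalamus and 4.01 in brainstem.

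**Figure D2:**
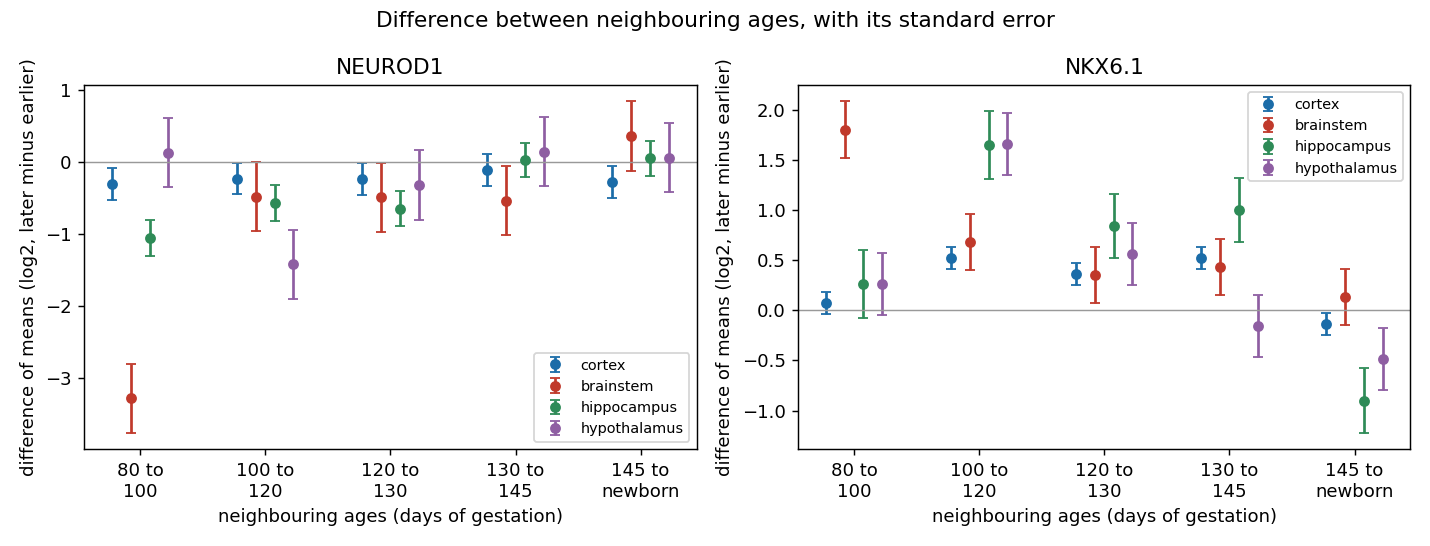
Difference of group means between neighbouring ages (log2, later minus earlier) with its standard error, for NEUROD1 and NKX6.1, coloured by region. The brainstem has its largest steps from 80 to 100 d (-3.28 and 1.8), and NKX6.1 in hippocampus and hypothalamus has its largest from 100 to 120 d (1.65 and 1.66). Steps of NKX6.1 that start at 80 d in hippocampus, or at 80 or 100 d in cortex, start from values not above background.

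The regions differed in the size of these changes. For NEUROD1 the difference between 145 and 80 d was more negative in brainstem than in hippocampus by 2.56 (SE 0.54), than in hypothalamus by 3.32 (SE 0.68) and than in cortex by 3.92 (SE 0.53). For NKX6.1 both ages were measurable in brainstem and hypothalamus, where the change in brainstem was larger by 0.93 (SE 0.42) in this processing. With the scanner software's processed signal the changes lay close together, at 4.01 in brainstem and 3.94 in hypothalamus. The size of this region difference therefore depends on the processing. Hippocampus and cortex have only the lower limits of this processing, 3.68 and 1.37, so no difference of their changes from other regions is given.

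Set side by side at 1 age, hippocampus and cortex were clear of hypothalamus in NEUROD1 at 5 of the 6 ages, and overlapped it at 100 d through replicate 3 of the hypothalamus. The share of all genes that did not overlap between regions was counted at 80 and 145 d only. At 80 d the 4 regions spanned 3.66, from 13.03 in hippocampus to 9.37 in hypothalamus. At that age the brainstem arrays overlapped those of hippocampus and, through replicate 2 alone, those of cortex, and were clear of those of hypothalamus. Arrays at 80 d did not overlap for 26.7% of all genes between brainstem and hypothalamus, 29.3% between brainstem and hippocampus, 39.8% between cortex and brainstem, 17.2% between cortex and hippocampus, 21.6% between cortex and hypothalamus and 12.1% between hippocampus and hypothalamus. At 145 d cortex (10.86) and hippocampus (10.79) overlapped, as did brainstem (7.92) and hypothalamus (7.89), while both of the former were clear of both of the latter. Cortex exceeded brainstem by 2.94 (SE 0.31) and hypothalamus by 2.97 (SE 0.11), hippocampus exceeded hypothalamus by 2.9 (SE 0.1), and brainstem minus hippocampus was -2.87 (SE 0.31). At 145 d 44.5% of all genes did not overlap between cortex and brainstem, 30.4% between cortex and hypothalamus, 13.4% between brainstem and hippocampus, 11.8% between hippocampus and hypothalamus, 18% between cortex and hippocampus and 22.6% between brainstem and hypothalamus.

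For NKX6.1 the brainstem had the highest mean at all 6 ages and the cortex the lowest from 120 d on. At 80 d the brainstem mean of 7.58 was at least 2.12-fold above cortex and at least 2.09-fold above hippocampus, neither of which was above background, and clear of hypothalamus at 6.95. At 145 d the order was brainstem 10.85, hippocampus 10.2, hypothalamus 9.27 and cortex 7.88, and none of the 6 pairs of regions overlapped. In the same pairs between 11.8 and 44.5% of all genes did not overlap. The span between brainstem and cortex was 2.97 at 145 d (7.84-fold) and 3.23 in newborns (9.38-fold). Over all genes, the newborn brainstem arrays differed more from one another than those of the other brainstem ages.

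Ordered by mean over the 24 groups, NEUROD1 had hippocampus and brainstem at 80 d on top and hypothalamus at 130 d last, and all 23 neighbouring pairs in this order overlapped. Without replicate 3 of the hypothalamus at 100 d, 22 of 23 did, with a gap between newborn cortex and brainstem at 100 d. NKX6.1 overlapped in 21 of 23 neighbouring pairs, with gaps below brainstem at 120 d and below brainstem at 80 d, and its groups with no array above background have no order among themselves. No share of all genes was counted for such orders.

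Slides held several ages, so the changes were also read within a slide. On 3 brainstem slides the NEUROD1 difference between 145 and 80 d was -6.3 to -3.42, and the NKX6.1 difference 3.13 to 3.5. On 3 cortex slides the ranges were -1.09 to -0.66 and 1.29 to 1.6, on 2 hippocampus slides -2.41 to -2.15 and 3.5 to 4.02, and on 3 hypothalamus slides -2.08 to -1.15 and 2.29 to 2.35. For NKX6.1 in cortex and hippocampus these differences take the 80 d readings, not above background, as they stand and are no limits. In every slide with both ages the direction was that of the whole region.

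Across the arrays of a region the 2 genes ran against each other, with r = -0.915 in brainstem, -0.821 in hippocampus (n = 23), -0.767 in cortex and -0.632 in hypothalamus (n = 24 each). The arrays share the order of age, and around the mean of each age r was -0.414, 0.254, -0.249 and 0.244 in the same order of regions. Within an age the arrays thus showed no common direction over the 4 regions.

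The other genes of the 2 factors' networks were taken from lists of neurogenic and proneural factors and of homeodomain and ventral patterning factors, of which 10 had a named probe besides the 2 described. NEUROG3, which induces NEUROD1 in endocrine precursors, stayed near background in all regions and was not tested. Of the 9 tested, the limma F test of all later ages with 80 d, adjusted over all genes, called 5 in brainstem (40.6% of all genes), 1 in cortex (45.7%), 2 in hypothalamus (16%) and 0 in hippocampus (3.05%). In the hippocampus 2 of the 9 had an unadjusted p under 0.05, and under each alternative run the count stayed at 0.

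PAX6, which maintains neural progenitors and drives NEUROD1 in several lineages, is also a granule cell gene. In brainstem it went from 10.13 ± 0.34 at 80 d to 8.6 ± 0.26 at 145 d (SD, n = 4), a difference of -1.52 (SE 0.23, limma adjusted p = 2.98e-05), and in hypothalamus from 9.04 to 8.2 (-0.85, SE 0.17, limma adjusted p = 0.00151). In cortex the difference was -0.69 (SE 0.35, limma adjusted p = 0.13) and in hippocampus 0.23 (SE 0.54, limma adjusted p = 0.875, and -0.07 with 0.922 without slide 4), so no change was detected there. ISL1, a LIM homeodomain factor of motor neurons and of hypothalamic neurons, fell in hypothalamus from 9.29 to 8.5 (-0.8, limma adjusted p = 0.00548) and in brainstem by 0.42 (limma adjusted p = 0.00338). In cortex ISL1 differed by -0.53 (limma adjusted p = 0.0231), which rests on 1 array of 80 d, replicate 2: the arrays of that age ran from 6.75 to 8.19, the difference was -0.22 without it, and the F test did not pass (limma adjusted p = 0.0845).

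NKX2-2, a ventral homeodomain factor that also acts in oligodendrocyte differentiation, rose in cortex from 7.21 to 7.87 (0.65, SE 0.1, limma adjusted p = 1.65e-05) and in hippocampus from 7.29 to 8.16 (0.87, SE 0.24, limma adjusted p = 0.0386, and 0.84 with 0.116 without slide 4), where its F test did not pass (limma adjusted p = 0.32). In brainstem it passed the F test (limma adjusted p = 0.0457, and 0.116 without 80 d replicate 3), with 8.14 at 80 d and 8.83 at 130 d, but differed between 145 and 80 d by 0.28 (limma adjusted p = 0.227). In hypothalamus that difference was -0.02. SMO, the Sonic hedgehog signal transducer, fell in brainstem by 0.45 (SE 0.09, limma adjusted p = 0.000302), while the receptor PTCH1 did not pass in any region and SHH itself was near background. GATA3, a factor of hindbrain neurons, passed the F test in brainstem (limma adjusted p = 0.0189) with 10.24 at 80 d and 9.6 at 145 d (-0.65, limma adjusted p = 0.137). The Notch pathway genes NOTCH1 and JAG1 did not pass in any region and lay between 6.44 and 6.86 at the ages compared, near background. By region, NOTCH1 was well above background on between 7 of 23 arrays (hippocampus) and 15 of 24 (brainstem). For JAG1 this held on between 6 of 24 arrays (brainstem) and 16 of 24 (cortex), so a change in either could be missed.

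Between 145 and 80 d, the listed genes that passed were 0 up and 3 down in brainstem, 1 and 0 in hippocampus (0 and 0 without slide 4), 0 and 2 in hypothalamus, and 1 and 1 in cortex. Of all genes tested, 17% rose and 20.5% fell in brainstem, 2.12% and 2.43% in hippocampus, 5.69% and 8.46% in hypothalamus, and 18.7% and 22.7% in cortex. The median change of the 9 genes was -0.12, 0.23, -0.07 and -0.07 in these regions, beside 0.01, 0, -0.02 and -0.02 for all genes.

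**Figure D3:**
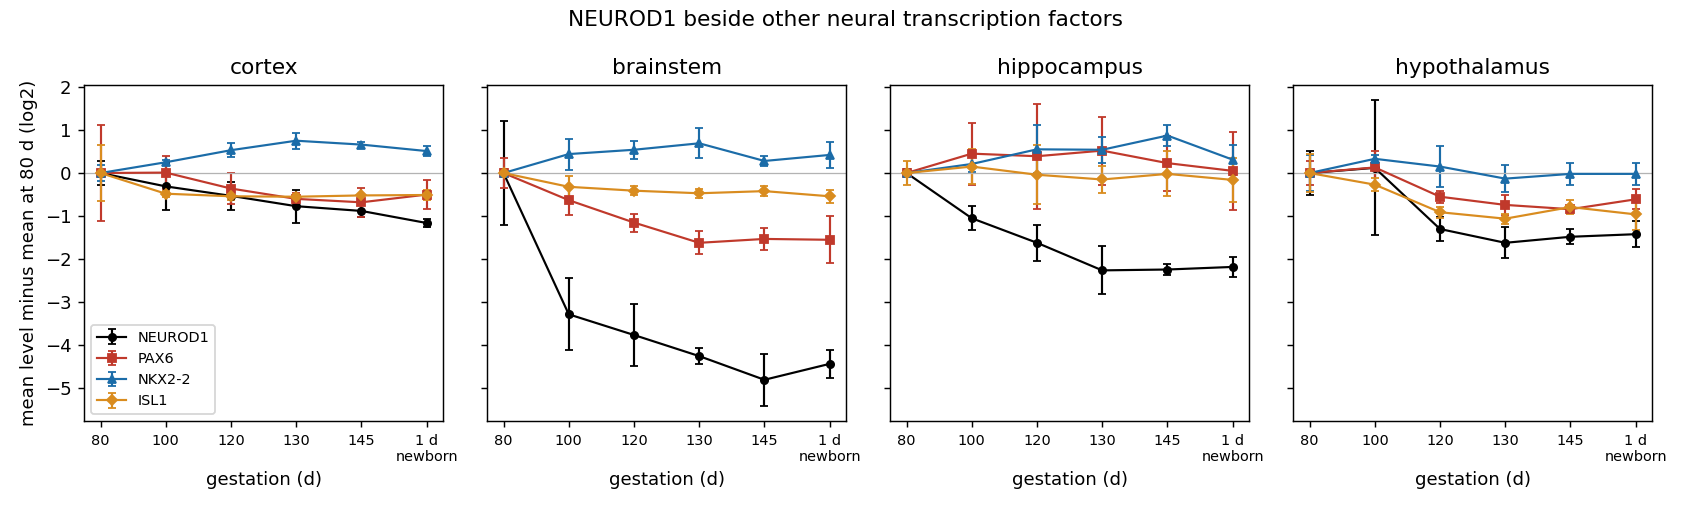
Mean level minus the mean at 80 d (log2, with the SD of each age as bars) for NEUROD1, PAX6, NKX2-2 and ISL1 in each region, against age. In brainstem NEUROD1 lies 4.8 below its start at 145 d and PAX6 1.52 below, and in hippocampus NEUROD1 lies 2.24 below while PAX6 is 0.23 above (-0.07 without slide 4).

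Markers of other cells moved with the 2 genes, and their part in the results was not tested. Of 6 named glial genes, 5 rose between 80 and 145 d in brainstem (17% of all genes), 3 in hippocampus (2.12%), 3 in hypothalamus (5.69%) and 6 in cortex (18.7%). GFAP, the astrocyte filament, rose in cortex from 7.94 to 10.63 (2.69, SE 0.18, limma adjusted p = 2.6e-10), and TF, an iron carrier made by oligodendrocytes, rose in hippocampus from 9.73 to 16.53 (6.8, SE 0.87, limma adjusted p = 6.32e-05, and 7.12 without slide 4). Of 9 cell cycle genes, 7 fell in brainstem (20.5% of all genes), 2 in hippocampus (2.43%), 5 in hypothalamus (8.46%) and 8 in cortex (22.7%). Without slide 4 the hippocampus count was 4, beside 3.73% of all genes. CCNA2, a cyclin of dividing cells, fell in brainstem from 8.86 to 6.81 (-2.05, SE 0.14, limma adjusted p = 1.44e-09) and TYMS, which makes thymidylate for DNA, from 9.01 to 7.32 (limma adjusted p = 6.51e-07), whereas CDK1 fell in hippocampus from 8.71 to 7.1 (limma adjusted p = 0.0147, 0.00561 without slide 4, and 0.0591 without 145 d replicate 1).

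Some markers of tissue next to the brainstem also differed with age. Of 4 named choroid plexus genes 2 fell there (20.5% of all genes) and 0 rose. IGFBP2 went from 15.61 to 14.26 (-1.35, SE 0.4, limma adjusted p = 0.0114) and IGF2 from 11.31 to 10.04 (limma adjusted p = 0.0438, and 0.173 without 145 d replicate 3). The plexus marker TTR was 17.85 (n = 3) and 17.63, at the top of the scale, where its highest arrays read 18.46 at 3 ages and a change may not show. No brainstem array was marked as saturated for it. At the ages between, its means were lower: 16.66 at 100 d, 16.05 at 120 d (n = 3) and 16.63 at 130 d (n = 3). Its arrays at 100 d ran from 15.54 to 18.46. The water channel AQP1, named after its values were seen, differed by -0.09. Among 12 pituitary genes, of which 7 were tested in brainstem, PRL fell in brainstem from 11.25 to 7.75 (-3.51, SE 0.74, limma adjusted p = 0.000832), while GH and POU1F1, the sister hormone and the factor of the same pituitary lineage, both named after their values were seen, were at 6.35 to 6.45 at every age, near background. Of the 7 tested there, 0 rose (17% of all genes) and 2 fell (20.5%) between 80 and 145 d. POMC and LHB, also named after their values were seen, had a clear signal in brainstem and did not pass. POMC went from 9.14 to 9.74 (limma adjusted p = 0.0951) and LHB from 10.07 to 10.16 (limma adjusted p = 0.66). The F test called 2 of the 7 tested in brainstem (40.6% of all genes), 1 of 7 in cortex (45.7%; CRHR1, 6.9 at 80 d and 7.15 at 145 d), 0 of 8 in hippocampus (3.05%) and 0 of 10 in hypothalamus (16%). Cerebellar granule cells express NEUROD1 strongly, and of their listed genes only PAX6 and GRM4 had named probes besides it. GRM4, a glutamate receptor of those cells, was 10.3 at 80 d and 10.77 at 145 d in brainstem and did not pass there (F test, limma adjusted p = 0.51), and in hypothalamus it fell from 10.86 to 10.48 between these ages (limma adjusted p = 0.0446, and 0.154 without 145 d replicate 1).

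The F test called 40.6% of all genes in brainstem, 45.7% in cortex, 16% in hypothalamus and 3.05% in hippocampus, and the remaining lists are read against these shares. Of 6 mature neuron genes it called 4 in brainstem, 3 in cortex, 1 in hypothalamus and 0 in hippocampus. Of 10 islet and endocrine genes tested it called 4 in brainstem and 5 in cortex, near the shares of all genes, and 0 in the other 2 regions. Without slide 4 the hippocampus had 1 of each of these lists, GRIA2 (limma adjusted p = 0.00882) and PCSK1 (limma adjusted p = 0.0441), beside 4.1% of all genes. Of the hypothalamus genes it called 4 of 9 tested in brainstem, also near the share of all genes, 5 of 8 in cortex, 1 of 10 in hypothalamus and 0 of 9 in hippocampus, and of 4 brainstem genes GATA3 in brainstem only. The islet hormone and neuropeptide SST fell in brainstem from 14.27 to 12.37 (limma adjusted p = 5.76e-06), the peptides TAC1 and NPY from 12.78 to 11.37 (limma adjusted p = 0.000228) and from 11.47 to 10.38 (limma adjusted p = 0.00334), and GAL from 7.93 to 6.87 (limma adjusted p = 0.000102). Of the 9 hypothalamus genes tested there, 4 fell (20.5% of all genes) and 1 rose (17%) between 80 and 145 d. The riser was OXT, here named after its values were seen, at 0.64 (limma adjusted p = 0.00348). Its F test did not pass (limma adjusted p = 0.052). In cortex SST and NPY rose, from 13.47 to 14.95 (limma adjusted p = 0.000166) and from 11.95 to 12.66 (limma adjusted p = 9.49e-05). Of the 8 hypothalamus genes tested in cortex, 3 rose (18.7% of all genes) and 1 fell (22.7%) between 80 and 145 d. The one that fell in cortex was PMCH, named after its values were seen, at -0.54 (limma adjusted p = 9.28e-05). There IGF2, a growth factor of plexus and meninges, rose from 7.69 to 9.8 (limma adjusted p = 0.0007) and the prohormone convertase PCSK1 from 7.54 to 8.82 (limma adjusted p = 5.85e-07), while the glutamate receptor subunit GRIA1 fell from 10.59 to 9.06 (limma adjusted p = 0.00473). Among 3 blood genes HBB was 11.67 and 13.04 in brainstem at 80 and 145 d (limma adjusted p = 0.0287, and 0.0978 without 80 d replicate 1), AHSP 8.17 and 7.04 (limma adjusted p = 0.00783), and EPOR 7.06 and 7.62 (limma adjusted p = 0.000352).

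Genes whose 24 group means ran most like those of a factor were picked among 838 other named genes, so their changes are given without a test. These means share tissue, slides and the order of age. For NEUROD1 they were SLC25A17 (r = 0.869), the muscarinic receptor CHRM3 (0.834), the netrin NTN4 (0.821), AGGF1 (0.797) and EIF4GI (0.776). CHRM3 stayed between 6.52 and 6.99 at the ages compared, and SLC25A17 differed between 145 and 80 d by -0.98 in brainstem and -0.11 in hippocampus. AGGF1 differed by -0.34 in brainstem and EIF4GI by -0.27. NTN4 differed between these ages by -1.15 in brainstem, -0.78 in hippocampus, -0.59 in cortex and -0.34 in hypothalamus. The most opposite were PAEP (r = -0.812), the integrin ITGAV (-0.801) and the lactate transporter SLC16A1 (-0.8), the last 2.43 higher at 145 d in brainstem (SE 0.2).

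For NKX6.1 the likeness was closer. The 5 nearest genes were the small heat shock protein CRYAB (r = 0.954), the gap junction protein GJB1 of myelinating cells (0.947), CYP2J (0.943), the copper protein CP (0.942) and the ubiquitin ligase subunit FBXO32 (0.928). CRYAB differed between 145 and 80 d by 4.38 in brainstem, 4.72 in hippocampus, 4.19 in hypothalamus and 3.45 in cortex. In the same order GJB1 differed by 3.28, 2.15, 2.08 and 0.88, beside 3.26, at least 3.68, 2.33 and at least 1.37 for NKX6.1. Among the most opposite were the kinase CSNK1E (r = -0.92) and RASSF1 (-0.9).

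**Figure D4:**
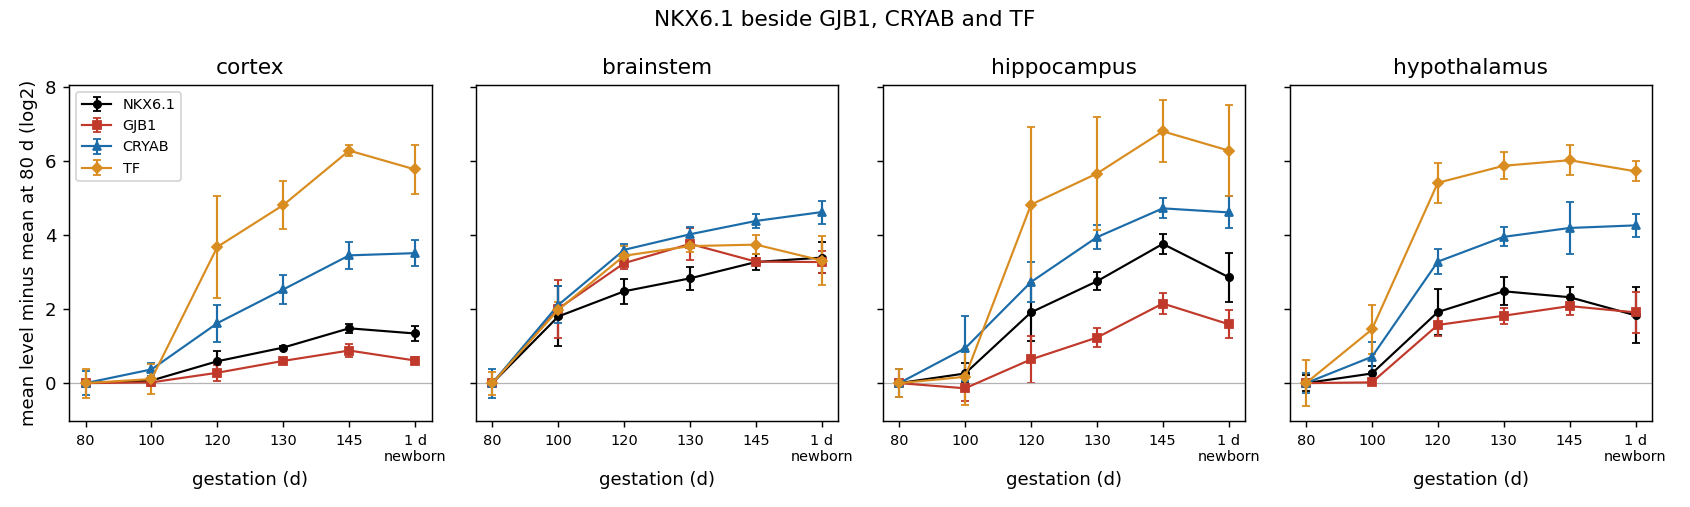
Mean level minus the mean at 80 d (log2, with the SD of each age as bars) for NKX6.1, GJB1, CRYAB and TF in each region, against age. In hippocampus and cortex NKX6.1 starts from values not above background. At 145 d in brainstem NKX6.1 and GJB1 stand 3.26 and 3.28 above their start.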

How the data were processed

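Total RNA of each dissected region was labelled with Cy3 and hybridized by the authors to 1-colour Agilent sheep arrays of 60-base probes, 8 to a slide. For every array the authors deposited the scanner output, with the mean and the local background intensity of each spot, read with scanner software 10.1.1.1 and not normalized between arrays. Normalized log2 values were deposited as well, in 1 table for the series, whose 95 columns each correlated best with the same array as processed here (r = 0.999 to 1 over 11138 probes). Its column medians were 9.04 to 9.1.

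From the scanner values, background was removed by normexp with an offset of 50 in limma 3.58.1 (R 4.3.3), and arrays were quantile normalized together, following the study's methods where stated. The offset keeps values positive and narrows changes of dim probes. Spots marked as outliers were left out, and probes of a gene were averaged. Within a region, probes entered the fit if their signal reached at least 1.1 times the 95th percentile of 77 negative controls on at least 4 arrays. Of 15008 probes 1557 had a symbol, from the files or from RefSeq gene names (assembly ARS-UI_Ramb_v3.0), and the NEUROD1 and NKX6.1 probes were found in the same way.

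All 6 ages of a region were fitted together in limma. The study's BETR test was replaced by the F test of later ages with 80 d and by contrasts, with Benjamini-Hochberg adjustment over all genes of the region and a threshold of 0.05. Differences of the 2 factors carry the standard error of that fit and no p. The labels do not say which arrays of an age share a litter or a day. The p-values therefore measure the spread between these samples and take them as independent. Precision is limited by the 3 or 4 arrays of a group.

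Named genes are the 2 factors, the 5 genes most like and the 3 most unlike each over the 24 group means, every named gene of the neurogenic and homeodomain lists, and up to 3 genes of each other list that passed the F test. Some genes that this rule names, and some probe sequences, are not reported here. The other lists hold islet and endocrine, mature neuron, granule cell, pituitary, hypothalamus, brainstem, choroid plexus, glial, blood and cell cycle genes, and a cortex and hippocampus list with no named probe. The factors and the lists were chosen with earlier results of these data known. Alternatives were an offset of 16, the processed signal, the series table, quantile normalization within a region, no filter, the brightest probe, single probes, trend and robust settings, slide or replicate number as a block, and leaving out each array, and, chosen after seeing the data, leaving out hippocampus slide 4, and leaving out each array from the steps between neighbouring ages, from the order of groups and from the fits of listed genes. Simulated data with known changes were used to test the scripts. Figures were drawn with matplotlib 3.10.9.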

Additional observations from a re-analysis of the deposited data

Results flagged for a closer look

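Of 46 groups large enough to examine, 1 held an array far from its mates: in the cortex at 1 d after birth, NEUROD1 on replicate 3 read 10.73 while the other 3 arrays read 10.52 to 10.54. Its gap to the nearest array was 0.887 of the whole range of the group. By chance about 1 in 20 groups is expected to show such a gap, and the whole range is small beside the difference of -1.16 between newborns and 80 d.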

How the results depend on the processing

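Dim signal limits NKX6.1 most. No alternative turned the direction of any difference between 145 and 80 d. With an offset of 16 the NKX6.1 difference was 3.57 in brainstem, 4.65 in hippocampus, 2.81 in hypothalamus and 2.21 in cortex. With the processed signal it was 4.01, 8.63, 3.94 and 5.71 in the same order, that of NEUROD1 in hypothalamus was -2.13, and 3 listed genes passed the F test in cortex in place of 1, as also with the brightest probe of each gene (3). The authors' series table gave NKX6.1 1.17 in cortex and 3.44 in hippocampus, and normalization within a region 1.74 and 3.32. For NEUROD1 in hippocampus, normalization within a region gave -2.35, the brightest probe and probe 1 alone -2.37, and probe 2 alone -2.1. The cause of these shifts was not tested, except that a smaller offset widens changes of dim probes by construction. No spot lay in an area of an array that deviated by over 1 (largest 0.45). Leaving out 1 array moved the NEUROD1 difference between -5.35 and -4.5 in brainstem, -2.29 and -2.2 in hippocampus, -1.63 and -1.24 in hypothalamus and -0.96 and -0.76 in cortex, and the NKX6.1 difference between 3.18 and 3.35, 3.67 and 3.85, 2.21 and 2.43, and 1.43 and 1.52. The count of listed genes ranged from 1 to 2 in cortex (2 without 80 d replicate 4 or without newborn replicate 1), 4 to 5 in brainstem, 0 in hippocampus and 2 in hypothalamus.

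Replicate numbers were not taken to pair the arrays: same-numbered arrays of an age in different regions had a median correlation of deviations of 0.0545 (-0.345 to 0.545), against -0.0458 for other numbers, and those of a region at different ages 0.106 (-0.574 to 0.869), against -0.04. With the replicate block the differences between 145 and 80 d were -4.8 and 3.26 in brainstem, and the listed genes called there were 4 in place of 5, and the other 3 regions kept their counts. With slide as a block they were -4.8 and 3.26, with 5 genes.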
